A study of Danio rerio with 2 samples.

Results

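Marker genes of neutrophils and macrophages were followed in zebrafish larvae after knockdown of *miR-132*. The set holds 10 genes: *mpx* and *lyz* of neutrophils, *mpeg1.1*, *csf1ra* and *marco* of macrophages, *lcp1*, *coro1a* and *ptprc* of all leukocytes, and the transcription factors *spi1b* and *cebpb*. Of these, 8 were measured, by 16 of the 43603 probes of the array, and no probe was matched to *marco* or *ptprc*, which were not analysed here. The genes were chosen by their role as markers and with their ratios between these same arrays already known, so every ratio below describes the 2 arrays and none was tested.

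Total RNA came from zebrafish embryos at 3 dpf (days post fertilization). The *miR-132* morphants had received 8 ng of *miR-132* MO, a morpholino antisense oligonucleotide that targets the mature microRNA, and the control animals had received 8 ng of Ctrl MO. Both groups were injected at the one-cell stage, freed of the chorion with pronase at 1 day and kept in diluted Hanks' solution. The paper states that phenylthiourea (PTU) was added to this solution to keep pigment from forming. RNA of each group was labelled with Cy3 and hybridized to 1 Agilent array per group, with no replicate and no measure of the spread between animals. Because the RNA is of whole larvae, more cells of a type and more RNA per cell cannot be told apart. The level of *miR-132* itself was not analysed here.

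Neutrophils and macrophages are the phagocytes that a zebrafish larva already carries in blood and tissue, long before lymphocytes mature. Both descend from myeloid precursors that depend on Spi1 (PU.1), an ETS family transcription factor, and neutrophils load their granules with enzymes that kill microbes, whereas macrophages engulf debris and settle in the brain as microglia. Promoters of *mpx*, *lyz* and *mpeg1* are in wide use to make these cells visible in living larvae.

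The *miR-132* MO array had 80.3% of its transcript spots well above background and a 75th percentile of intensity of 866, against 88.0% and 731 on the Ctrl MO array, and 0 transcript spots were saturated on either. The SD over 153 negative-control spots was 17.2 on the *miR-132* MO array and 2.98 on the Ctrl MO array, so the blank spots varied more on the array of the morphants. Levels below are intensities as a percentage of the 75th percentile of the same array, and they can be set side by side for 1 probe but not between probes. The ratio is *miR-132* MO over Ctrl MO on the log2 scale, and a gene is the mean of its probes. Spot noise was taken as the SD of the ratio over the spots of 27 repeated probes, with a median of 5 spots each. This SD had a median of 0.105 and a range of 0.01 to 0.47. The scanner software gives an error for the intensity of each spot. For the brightest marker probe, of *cebpb*, it was 837.8 on 8378.0 in *miR-132* MO and 454.3 on 4543.2 in Ctrl MO larvae. The scanner error of a ratio combines the errors of both arrays, and was 0.20 to 0.26 for the marker probes above background on both. With 1 array per group, it is not a spread measured between arrays. Neither it nor the spot noise covers the difference between batches of larvae.

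All 8 measured genes had a ratio above 0, that is, a higher level in *miR-132* morphants, although *csf1ra* and *mpx* were each below 0 in 1 of 10 other processing settings (-0.10 and -0.15). Their ratios ran from 0.20 for *csf1ra* to 1.01 for *lcp1*, with a median of 0.50 (1.42-fold), beside a median of 0.005 over the 12232 genes with a ratio. At the threshold of 1.5-fold (0.585), 3 genes were higher, *lcp1*, *coro1a* and *cebpb*, 0 were lower, and the other 5 lay between 0 and the threshold. Of all genes, 4.41% were at least 1.5-fold higher, 7.66% were at least 1.5-fold lower and 50.6% had a ratio above 0. Since these ratios were known when the genes were picked, nothing is read from the difference between those shares and the counts. Of the 16 probes, 15 were well above background on both arrays, and 15 of these 15 had a ratio above 0. The share of all probes with a ratio above 0 was not computed here, so nothing is read from that count. At the same threshold, 8 of the 16 were higher, where 5.82% of all probes matched to a gene were. Of the 16, 1 was lower, an *mpx* probe that gives only a bound.

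**Figure D1:**
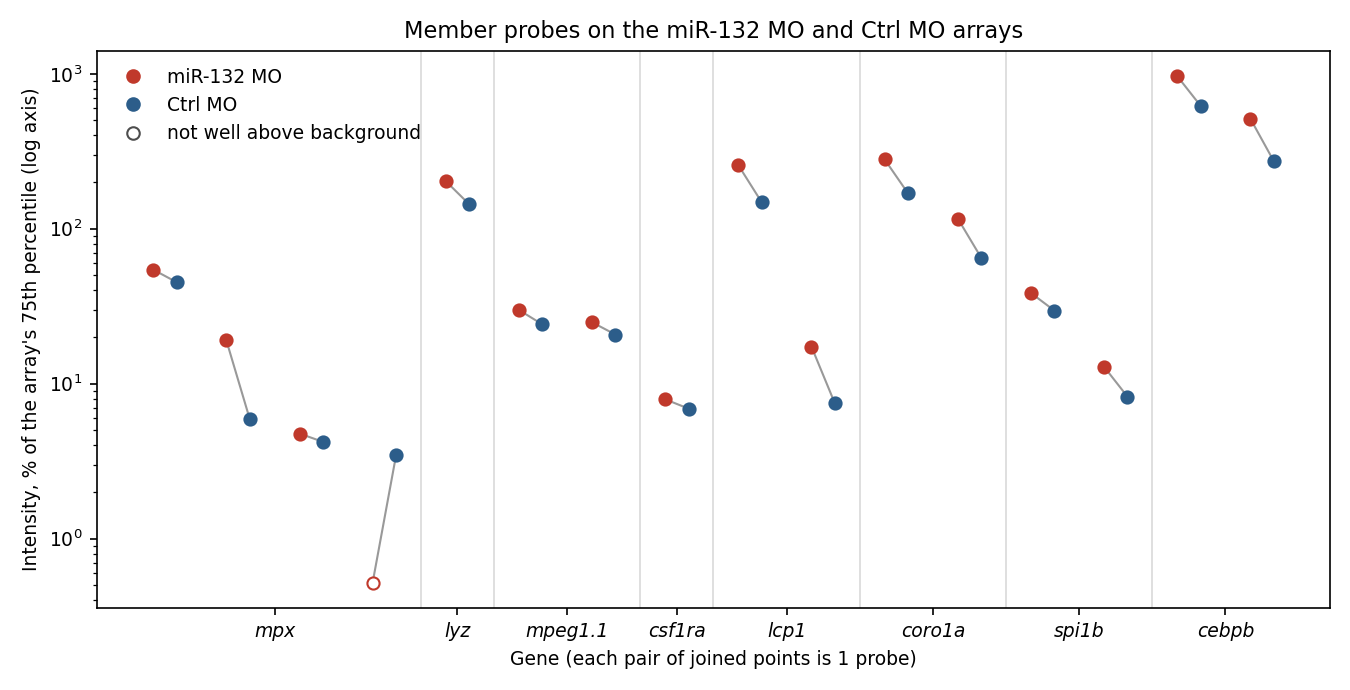
Level of each marker probe as a percentage of the 75th percentile of its array (log axis), with the miR-132 MO point left of the Ctrl MO point and a line joining the points of 1 probe. The miR-132 MO point is the higher one in 15 of 16 probes, and the exception is an *mpx* probe whose miR-132 MO spot was too close to background (open point).

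The neutrophil genes differed in how well their probes agreed. *mpx* (gene 337514) encodes myeloperoxidase, the granule enzyme that makes hypochlorous acid, and 4 probes measured it. Its brightest probe stood at 54.4% in *miR-132* MO and 45.2% in Ctrl MO larvae, a ratio of 0.27 ± 0.20 (scanner error). A second probe stood at 19% in *miR-132* MO and 5.9% in Ctrl MO larvae, a ratio of 1.69 ± 0.21 and the highest of all 16 marker probes. Those probes of the same gene thus disagreed by far more than spot noise, and whether each *mpx* probe still matches the gene was not checked, since no probe sequence was used here.

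The third *mpx* probe stood at 4.76% in *miR-132* MO and 4.21% in Ctrl MO larvae, a ratio of 0.18 ± 0.26, which is within its scanner error of 0. The fourth gave a reading of 0.52% in *miR-132* MO larvae, too dim to count as above background, and stood at 3.44% in Ctrl MO larvae, so it gives only a bound, at least 1.77-fold lower. The mean over the 4 probes was 0.33 (1.255-fold). The ratios of the 4 probes spanned 2.51 with the bound included, and those above background on both arrays ran from 0.18 to 1.69. Over 4155 genes with exactly 2 probes above background on both arrays, the median span was 0.17 and its 90th percentile 0.55. A span grows with the number of probes, so these values are not like for like. The mean ratio of *mpx* became 0.71 without the dim probe and -0.15 with that probe taken at its own reading, so neither its size nor its direction was settled by these probes.

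*lyz* (gene 677744), which encodes the lysozyme that breaks bacterial cell walls, had 1 probe. It stood at 203% in *miR-132* MO and 144% in Ctrl MO larvae, a ratio of 0.50 ± 0.20 (1.41-fold). That is over 2 scanner errors from 0 and below the 1.5-fold threshold. Normexp background correction models the background of each array from its spots and adds an offset of 50 to every spot. The offset draws the unscaled ratio of a dim probe toward 0. With normexp the ratio of *lyz* was 0.66, past the threshold.

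The macrophage genes had the lowest ratios of the set, next to *mpx*. *mpeg1.1* (gene 335407) encodes perforin-2, a pore-forming protein of macrophages, and its probes agreed closely. One stood at 29.9% in *miR-132* MO and 24.1% in Ctrl MO larvae, a ratio of 0.31 ± 0.21. The other stood at 24.9% in *miR-132* MO and 20.7% in Ctrl MO larvae, a ratio of 0.26 ± 0.21. Both are over 1 and under 2 scanner errors from 0, and the gene mean was 0.29 (1.22-fold). Its neighbour in the family, *mpeg1.2*, had a ratio of 0.11 on 1 probe.

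*csf1ra* (gene 64274) encodes the receptor for colony-stimulating factor 1 and for interleukin 34, which macrophages need for survival and for entry into the brain, and which yellow pigment cells also carry. Its 1 probe stood at 7.92% in *miR-132* MO and 6.89% in Ctrl MO larvae, a ratio of 0.20 ± 0.23 (1.15-fold), less than its own scanner error and -0.10 with normexp background correction. Among 7 xanthophore genes measured, the list of yellow pigment cells, 1 was at least 1.5-fold higher and 1 was lower (0 lower with normexp), with a median of -0.02. The highest was *gch2*, of pteridine pigment synthesis, at 0.83, and the lowest above background throughout was *slc2a15a*, a sugar transporter family gene, at -0.05. The part of pigment cells in the *csf1ra* signal was not tested.

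The genes shared by all leukocytes, *lcp1* and *coro1a*, were both past 1.5-fold. The ratio of *coro1a* was only 0.0093 above that of *cebpb*, and with normexp *cebpb* (0.76) was above *coro1a* (0.70) and level with *lcp1* (0.76). *lcp1* (gene 30583) encodes L-plastin, which bundles actin in leukocytes and is the usual antigen for staining them in larvae. Its brighter probe stood at 257% in *miR-132* MO and 148% in Ctrl MO larvae, a ratio of 0.80 ± 0.20. Its dimmer probe stood at 17.3% in *miR-132* MO and 7.45% in Ctrl MO larvae, a ratio of 1.22 ± 0.21. Both lay past 1.5-fold, the mean was 1.01 (2.01-fold), and 0.997% of all genes had a ratio at or above it. It was the 1 marker gene past 2-fold.

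*coro1a* (gene 100002113) encodes coronin 1A, an actin regulator of leukocytes that works with the Arp2/3 complex. Its probes stood at 280.1% and 116% in *miR-132* MO larvae, against 169% and 65.0% in Ctrl MO larvae. The ratios were 0.73 ± 0.20 and 0.84 ± 0.20, both past 1.5-fold, with a mean of 0.78 (1.72-fold). Of all genes, 2.05% had a ratio at or above that of *coro1a*.

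Of the transcription factors, *cebpb* was past the threshold and *spi1b* was not. *cebpb* (gene 140814) encodes C/EBPβ, which drives emergency granulopoiesis in mammals and is also used by liver and other tissues. Its probes stood at 967% and 514% in *miR-132* MO larvae, against 622% and 273% in Ctrl MO larvae. The ratios were 0.64 ± 0.20 and 0.91 ± 0.20, and the mean was 0.77 (1.71-fold). *spi1b* (gene 30117), the PU.1 gene of zebrafish myeloid precursors, had one probe at 38.5% in *miR-132* MO and 29.6% in Ctrl MO larvae, a ratio of 0.38 ± 0.20. The other stood at 12.85% in *miR-132* MO and 8.24% in Ctrl MO larvae, a ratio of 0.64 ± 0.21, which was past the threshold, while the mean of 0.51 (1.42-fold) was not.

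**Figure D2:**
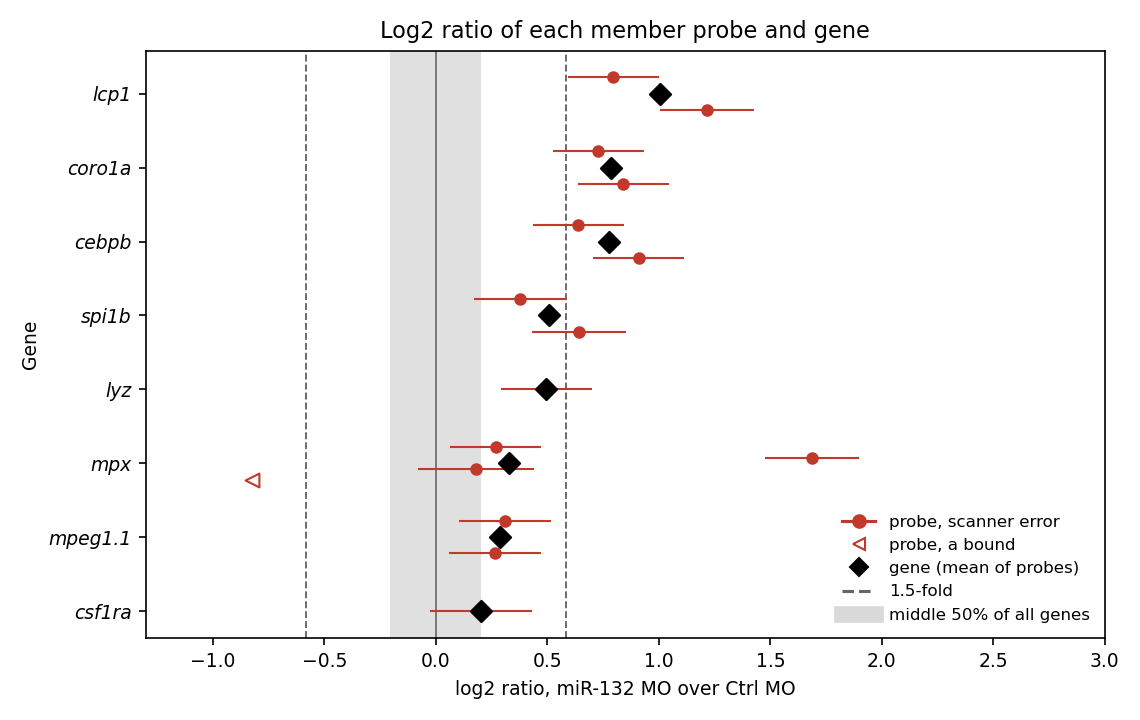
Log2 ratio (miR-132 MO over Ctrl MO) for each marker probe (red, with the scanner error; open triangle, a bound) and each gene (black diamond, the mean of its probes), with the middle 50% of all genes in grey and 1.5-fold as dashed lines. The diamonds of *lcp1*, *coro1a* and *cebpb* lie past 1.5-fold, *spi1b* and *lyz* lie just under it, and the 4 probes of *mpx* are spread from -0.82 to 1.69.

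The order of the gene ratios was *lcp1*, *coro1a*, *cebpb*, *spi1b*, *lyz*, *mpx*, *mpeg1.1* and *csf1ra*. Neighbours in this order were closer than the scanner error of a single probe, except that *lcp1* stood 0.22 above *coro1a* and *cebpb* stood 0.27 above *spi1b*. The closest to the threshold were *cebpb* at 0.77 inside it and *spi1b* at 0.51 and *lyz* at 0.50 outside it. In 4 of the 5 marker genes with exactly 2 probes (*lcp1*, *coro1a*, *cebpb* and *spi1b*), the dimmer probe had the higher ratio, which was also so in 61.1% of the 4155 genes with such a pair. Among matched probes above background on both arrays, those under an intensity of 100 in Ctrl MO were at least 1.5-fold higher in 9.92% of cases. Brighter ones were in 4.01%. The Ctrl MO intensity is also the lower term of the ratio, so this split by itself raises the share among the dim probes. The part of intensity in the marker ratios was not tested.

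**Figure D3:**
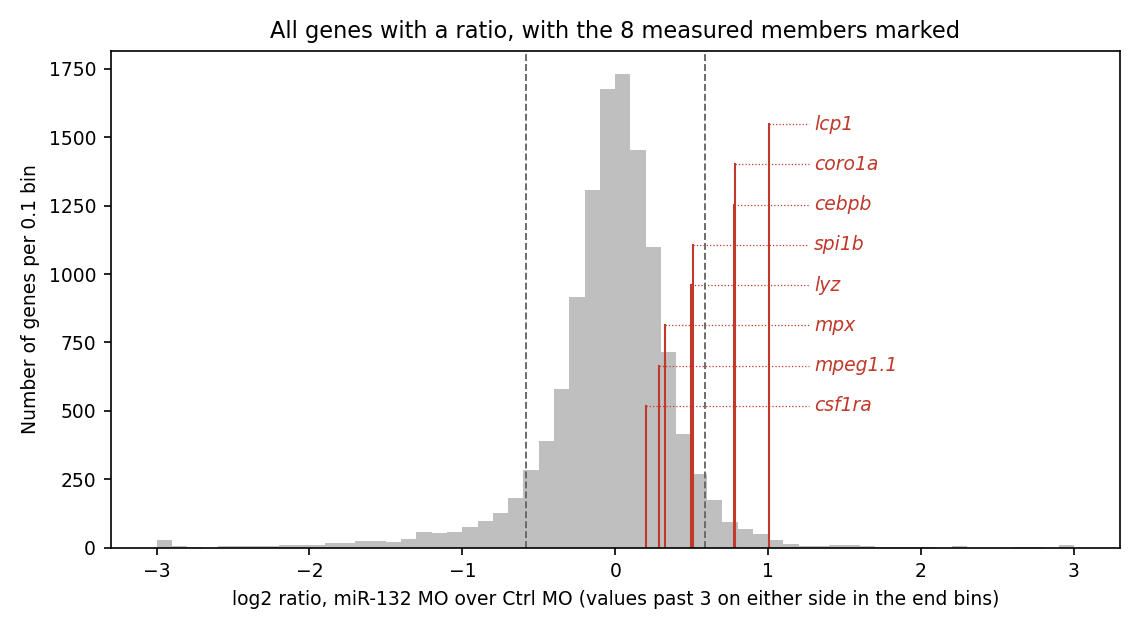
Number of genes in each 0.1 bin of the log2 ratio, miR-132 MO over Ctrl MO (grey, 12232 genes), with a red line at each of the 8 measured marker genes and dashed lines at 1.5-fold. All marker lines stand right of 0, from *csf1ra* at 0.20, close to the 75th percentile of all genes at 0.20, to *lcp1* at 1.01.

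Other lists of genes of the same cells did not move as one. They leave out the 10 marker genes and, like those, were chosen with earlier results of these data known. Beside each count below stand the shares of all genes, 50.6% above 0, 4.41% at least 1.5-fold higher and 7.66% at least 1.5-fold lower. Nothing is read from the difference between the counts and those shares. Of 14 further neutrophil genes measured, 10 had a ratio above 0 and 3 were at least 1.5-fold higher, with a median of 0.13. The highest was *mmp9*, a matrix metalloproteinase of neutrophil granules that epithelia and macrophages also make, with unscaled intensities of 1276 in *miR-132* MO and 379.7 in Ctrl MO larvae and 2.83-fold higher after scaling. The lowest was *cfp*, which encodes the complement protein properdin, at -0.26. The other genes past the threshold, named after their values were seen, were *cebp1*, a myeloid C/EBP gene of zebrafish, at 0.81 and *timp2b*, an inhibitor of metalloproteinases, at 0.60. The probes of *timp2b* lay at 0.31 and 0.89, on both sides of the threshold. The neutrophil gene *npsn*, a granule metalloproteinase also named after its value was seen, was at -0.08 with a bound among its 4 probes. With normexp only 1 gene of this list was at least 1.5-fold higher, while its median stayed above 0, from 0.02 to 0.28, in the 10 other settings in which it was computed.

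Of 26 further macrophage and microglia genes, 11 had a ratio above 0, 1 was at least 1.5-fold higher and 4 were at least 1.5-fold lower, with a median of -0.12. The highest was *tyrobp*, the DAP12 adaptor of myeloid receptors, at 0.82 on 1 dim probe, with unscaled intensities of 46.5 in *miR-132* MO and 22.2 in Ctrl MO larvae. The lowest was *il10ra*, a chain of the interleukin 10 receptor, at -1.70, also on 1 dim probe. Its unscaled intensities were 26.5 in *miR-132* MO and 72.9 in Ctrl MO larvae. The other 3 past the threshold on the lower side, named after their values were seen, were *c1qa* at -0.71, *cd74a* at -0.67 and *c1qc* at -0.61. *c1qa* and *c1qc* encode chains of the complement component C1q, which macrophages and microglia secrete, and *cd74a* encodes the invariant chain of antigen presentation. The values of *c1qa* and *cd74a* include a bound. Under the threshold, and also named after their values were seen, genes of these cells lay on both sides of 0, with *mfap4.1* at 0.48, *apoeb* at 0.33 and *irf8*, the factor that macrophages and microglia require, at 0.31, but the paralog *mfap4.2* at -0.49, *c1qb* at -0.51, *ccl34b.1* at -0.55, *slc7a7* at -0.45 and *lgmn* at -0.44. The counts were not stable, at 2 higher and 1 lower with quantile normalization and 0 higher and 1 lower with normexp, while the list median stayed below 0, from -0.14 to -0.05, in the 10 other settings.

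Of 18 further genes shared by leukocytes, 12 had a ratio above 0, 2 were at least 1.5-fold higher and 0 were lower, with a median of 0.18. The highest was *arpc1b*, a subunit of the Arp2/3 complex that branches actin, whose 3 probes ran from 0.67 to 1.25 around a mean of 0.98. The second, named after its value was seen, was *hcls1*, an Arp2/3-binding protein of blood cells, at 0.71. The lowest was *plek*, which encodes pleckstrin, at -0.32. With normexp background correction 1 was higher and the median was -0.05, against 0.14 to 0.25 in the other settings in which it was computed. The sign of the median thus depended on the processing, and the direction of the list was not settled. The part of the normexp offset in that negative median was not tested.

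The NADPH oxidase makes superoxide in both kinds of phagocyte, and 6 of its genes were measured. Their ratios ran from -0.14 for *ncf1*, a cytosolic subunit, to 0.43 for *cybb*, the catalytic subunit, with 5 above 0 and 0 past 1.5-fold in either direction. The brighter *cybb* probe was at 0.21 and the dimmer at 0.64. The median was 0.10, and -0.05 with normexp. With each gene counted once, the neutrophil, macrophage, leukocyte and oxidase lists held 63 measured genes, with a median of 0.11. Of these, 37 had a ratio above 0, 6 were at least 1.5-fold higher and 4 were at least 1.5-fold lower. The shares of all genes were 50.6%, 4.41% and 7.66%. The 8 marker genes stood higher, at a median of 0.50, than the other lists of the same cells, a contrast that was described and not tested. Since the markers were picked with these ratios known, nothing is read from it.

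Among 14 other myeloid transcription factors, 8 had a ratio above 0, 1 was at least 1.5-fold higher and 1 was lower, with a median of 0.07 that became -0.08 with the brightest probe of each gene. With normexp, 0 passed in either direction. The C/EBP genes differed among themselves, with *cebp1* of the neutrophil list at 0.81 and *cebpb* at 0.77. *cebpd*, which inflammatory signals induce in mammals, was at 0.60 on 3 probes between 0.52 and 0.70, and was under 1.5-fold with normexp and with its brightest probe, while *cebpa*, a factor of granulocyte and liver differentiation, was at -0.18 on 3 probes and *cebpg* was at 0.08 on 2. The lowest was *gfi1aa*, a zinc-finger repressor of blood development, at -0.74. No value was available for the paralogs *spi1a* and *csf1rb*, which were not analysed here.

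**Figure D4:**
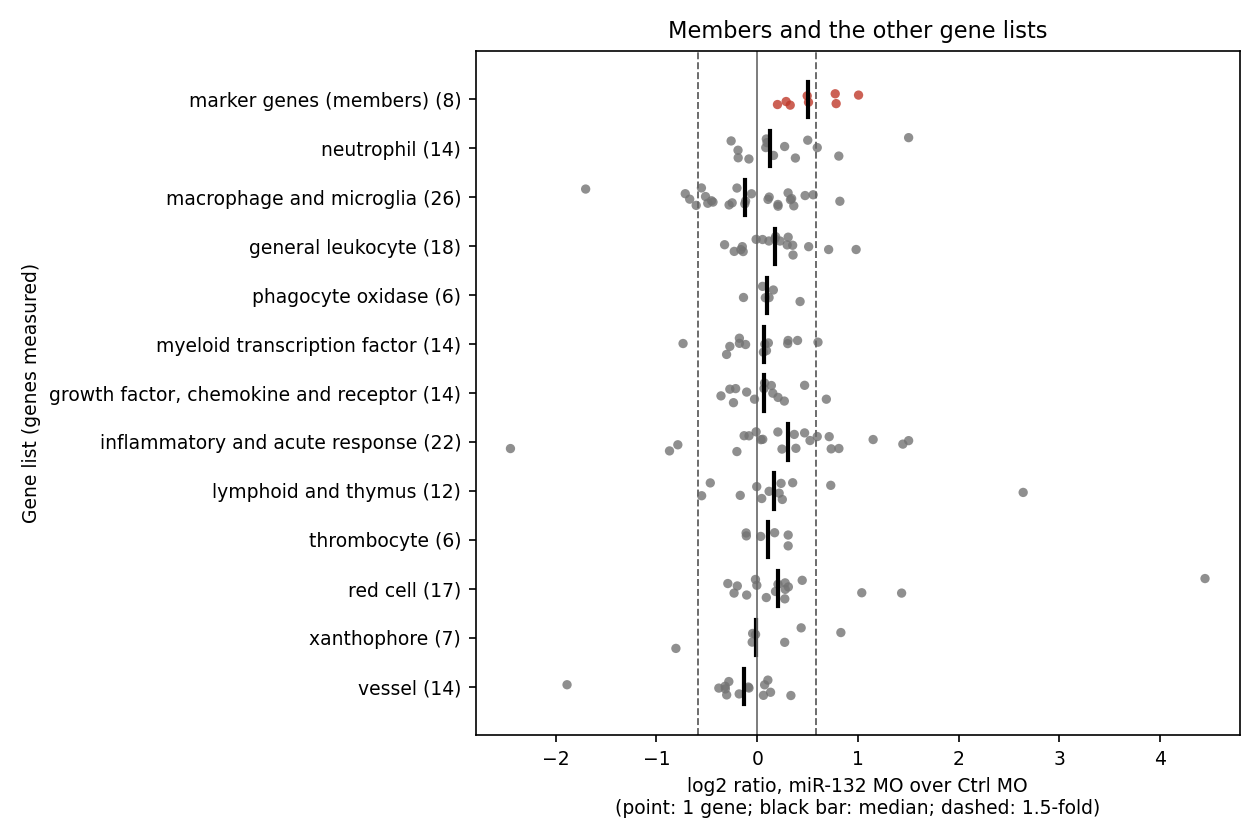
Log2 ratio (miR-132 MO over Ctrl MO) of each measured gene (points) in the marker set and 12 other gene lists that leave the marker genes out, with the median as a black bar and 1.5-fold as dashed lines. The 8 marker genes all lie right of 0, while the 26 macrophage and microglia genes run from -1.70 to 0.82 and the list of single genes for tissues of the larva is not drawn.

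Genes that act on these cells were set beside them. Of 14 growth factor, chemokine and receptor genes, 1 was at least 1.5-fold higher and 0 were lower, with a median of 0.07 that became -0.04 with normexp, and 3 were higher with no filter on dim probes. The highest was *cxcl18b*, a chemokine that draws neutrophils in zebrafish, at 0.69, and the lowest was *ccl19a.1* at -0.36. Of 22 inflammatory and acute response genes, 7 were at least 1.5-fold higher and 3 were at least 1.5-fold lower, with a median of 0.31 that stayed above 0 in the 10 other settings. Only 4 were higher with normexp, and only 1 was lower when both arrays had to be above background. *mmp9* led that list too, and *timp2b* is also in both lists, so the higher genes of this list and of the neutrophil list overlap. *hamp*, which encodes the iron hormone hepcidin of the liver, was the lowest gene above background throughout at -0.79. *il1b*, which encodes interleukin 1 beta, was at 0.20 with a bound, named after its value was seen. The part of an inflammatory response in the marker ratios was not tested.

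Other blood and vessel cells gave mixed values. Of 12 lymphoid and thymus genes, 2 were at least 1.5-fold higher and 0 were lower, with a median of 0.17. The highest above background throughout was *pax5*, listed for its role in B cells, at 0.25, and the lowest was *il7r* at -0.55. The *il7r* probes lay on both sides of 0, the brighter at 0.18 and the dimmer at -1.29, so its direction was not settled. Which cells of the whole larva gave these signals was not tested. Only 6 of these 12 genes had every probe above background on both arrays, and 0 were higher when both arrays had to be, while 3 were lower with dim sides at their own reading. Of 6 thrombocyte genes, 0 passed 1.5-fold, with *fermt3b* at 0.31 and *itgb3b* at 0.03 as the highest and lowest of the 3 above background throughout, and the lowest of all 6 at -0.11. Of 17 red cell genes, 3 were at least 1.5-fold higher and 0 were lower, with a median of 0.21. They ran from *fech*, of heme synthesis, at -0.29 to *hbbe3*, an embryonic globin, at 4.44 on 1 probe. The other globins of the list, named after their values were seen, were *hbae1.1* at 0.09, *hbae3* at -0.004 and *hbbe2* at -0.20. Of 14 vessel genes, 0 were at least 1.5-fold higher and 1 was lower, with a median of -0.13. The highest was *plvapb* at 0.33 and the lowest was *sele*, the endothelial selectin that catches leukocytes, at -1.89 on 1 probe. The unscaled intensities of *sele* were 38.4 in *miR-132* MO and 119.8 in Ctrl MO larvae. The paper reports less mRNA of *vsg1*, which it calls an ortholog of mammalian *Plvap*, in *miR-132* morphants. Whether the *plvapb* probes read that same gene was not checked.

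Tissues of the larva also differed between the arrays, and a marker level is relative to all of them. The liver gene *fabp10a* was at -3.68, the muscle gene *myhz2* at -0.24, the neuron gene *elavl3* at 0.10, the skin gene *krt4* at 0.67, with its 8 probes from -0.15 to 1.17 and the brightest of them the negative one, and the lens gene *cryaa* at 0.99. All 5 were well above background on both arrays. Whether these shifts in the makeup of the RNA moved the marker ratios was not tested.

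**Figure D5:**
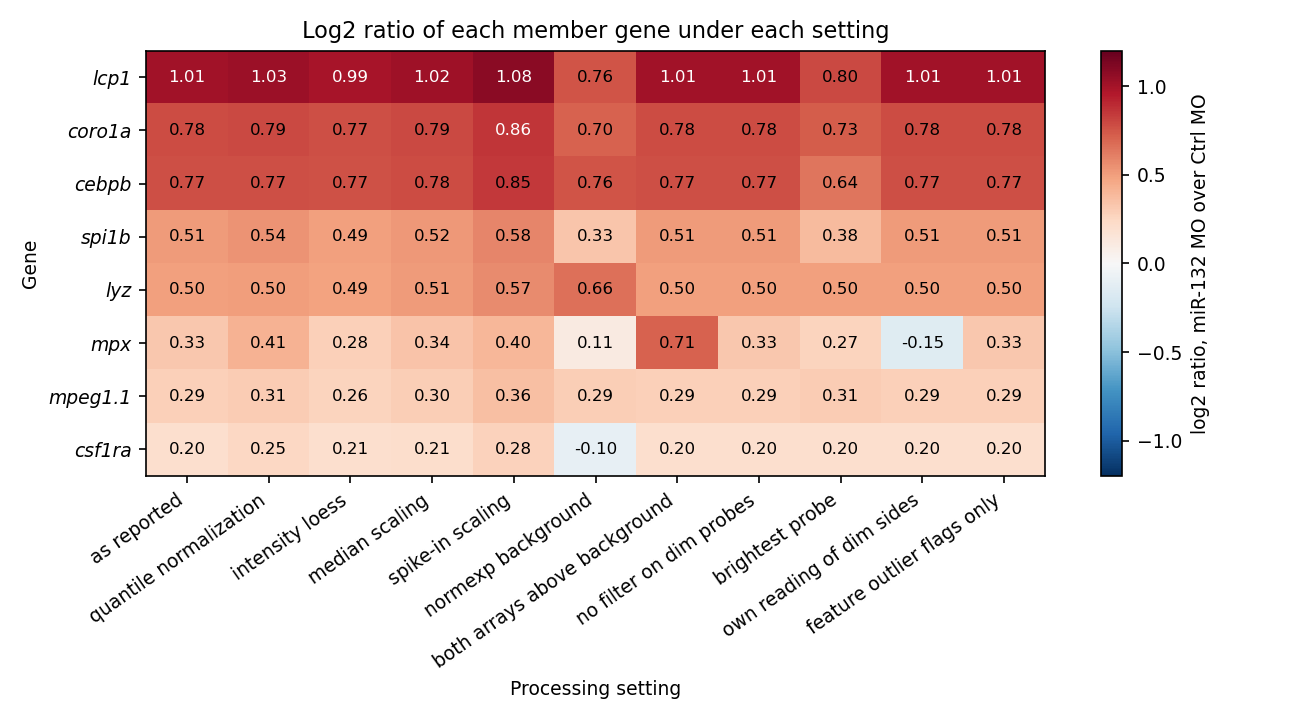
Log2 ratio (miR-132 MO over Ctrl MO) of each marker gene (down the page) under the reported setting and 10 others (across), in colour and in figures. The top 3 genes lie past 1.5-fold (0.585) in every column, and the values below 0 are *csf1ra* with normexp and *mpx* with dim sides at their own reading. Columns that change only the filter or the dim sides repeat the reported value for every gene but *mpx*.

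The ratios of *lcp1* (0.76 to 1.08), *coro1a* (0.70 to 0.86) and *cebpb* (0.64 to 0.85) stayed past 1.5-fold in the 10 other settings in which they were computed. Every probe of these genes was above background on both arrays, so settings that change only the filter or the dim sides could not move them. Feature outlier flags only also left them unchanged, and median and spike-in scaling shift all genes by the same amount. *lyz* passed it in 1 of the 10, *mpx* in 1, and *spi1b*, *mpeg1.1* and *csf1ra* in 0.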

How the data were processed

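The intensity values are the spot signals that the authors deposited, processed within each array by Agilent Feature Extraction 10.7 (background subtracted, not normalized between arrays), with flags and an error for each spot. A further copy of each array and the authors' table of fold changes were not used. Here the log2 intensity minus the 75th percentile over its array's transcript spots was taken, spots with a feature or background outlier flag on either array were left out, and the spots of a probe were averaged. A probe was kept if either array read it well above background. If the other array did not, that dim side was raised to the lowest value above background there, unless its own reading was higher, which gives a bound. Of 26981 probes with a RefSeq accession, 25069 matched 12858 genes in NCBI's table for GRCz12tu, with version numbers ignored, and a gene is the mean of its probes. The array was designed on another build, so no coordinates are given.

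The marker genes and the 13 gene lists were chosen with earlier results of these data known. The genes named were all markers, their paralogs, and in each list the highest and lowest gene with every probe above background on both arrays. Others are said to be named after their values were seen. With 1 array per group no test was run, and the number of arrays limits the precision. The code was tested on simulated arrays. Alternatives were an intensity loess (span 0.3), quantile normalization, median and spike-in scaling, normexp (offset 50), stricter and no filters, the brightest probe, a 2-fold threshold and probes one by one. Software was limma 3.58.1 in R 4.3.3, and numpy 2.4.6, pandas 2.3.3, matplotlib 3.10.9 and statsmodels 0.14.6 in Python 3.11.15.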

Additional observations from a re-analysis of the deposited data

How the results depend on the processing

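The median ratio of the 8 marker genes was 0.50 and lay between 0.44 and 0.61 in the other settings, with 0.58 for spike-in scaling, 0.61 for both arrays above background and 0.44 for the brightest probe. The median of all genes ran from -0.04 to 0.08 over the same settings. The count of marker genes at least 1.5-fold higher was 3, and 4 with normexp, which added *lyz*, and 4 with both arrays above background, which added *mpx*. It was 1 at a 2-fold threshold. With probes counted one by one, 8 were higher and 1 was lower. All genes counted 539 higher and 937 lower, against 237 and 571 with normexp, 123 and 407 at 2-fold, and 818 higher with no filter on dim probes. Fewer calls at 2-fold and more without the filter follow from how those settings are built. The normexp offset of 50 also narrows the ratios of dim probes by construction. Its part in the lower normexp counts, and the cause of the other shifts, were not tested. Of 80 marker gene ratios under the alternatives, 70 moved by less than the spot noise of 0.105 and 10 by more. Many of the 70 could not move, since the filter and dim-side settings leave a gene unchanged when every probe is above background on both arrays. Of 130 list medians, 60 moved by more than spot noise gives a median of that many genes, and of 286 list counts, 43 moved by over 1.5 times. Medians near 0 changed sign for the lymphoid list with normexp, both arrays above background and own readings (-0.12, -0.09 and -0.09), the thrombocyte list with normexp and own readings (-0.03 and -0.04) and the xanthophore list with quantile normalization, spike-in scaling and both arrays above background (0.11, 0.06 and 0.22). The settings with dim sides at their own reading and with feature outlier flags only, the flag rule first run, were chosen after seeing the data, and the second changed no marker value. Normexp used the median signal. Where a sign near 0 differed between normexp and the other settings, no direction was settled. The planned count of promoter motifs was not run, since no promoter sequence was used here. No paired analysis was possible because there was 1 array a group, which also leaves no replicate to drop. Dim readings touch 1 of 4 *mpx* probes, and 6 of 12 lymphoid and 3 of 6 thrombocyte genes had every probe above background on both arrays.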
